A study of Homo sapiens with 4 samples.

Results

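The receptors, SMADs and close regulators of TGF-beta signalling were examined as a group of 10 named genes: the ligand TGFB1, its storage protein LTBP3, the receptors TGFBR1 and TGFBR2, the signal carriers SMAD2, SMAD3 and SMAD4, and the inhibitors SMAD6, SMAD7 and SKIL. They were found by gene symbol. Of the 10, 8 were listed, with 35 of the 38510 transcripts and 8 of the 13036 genes, while SMAD6 and SMAD7 had no row under these symbols and were not analysed here. The cells were HCCLM3, a human hepatoma line, infected with a lentivirus whose short hairpin RNA was either a control (shCtrl, 2 samples) or directed at KIAA1429 (shKIAA1429, 2 samples). KIAA1429, listed under its current symbol VIRMA, belongs to the complex that writes N6-methyladenosine on RNA, and RNA was sequenced to look for genes downstream of it. The hairpin was the only labelled difference between the groups, and neither group was described as derived from a single clone. The labels do not say that the replicates came from separate cultures, so p-values measure the spread between these samples, which may be technical.

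TGF-beta is secreted bound to its propeptide and held in the matrix by latent TGF-beta binding proteins such as LTBP3. Once released, it binds the type II receptor TGFBR2, which recruits and phosphorylates the type I receptor TGFBR1. TGFBR1 then phosphorylates SMAD2 and SMAD3, which enter the nucleus with SMAD4 and act on target genes, while SKIL (SnoN) represses SMAD-driven transcription. In hepatoma cells the pathway is known for growth arrest as well as for a shift towards a mesenchymal, migratory state.

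Values were FPKM, the fragments assigned to an annotated transcript divided by its length and by the library total. A gene's level was the sum over its listed transcripts, so levels can be set side by side between genes per length. The summed FPKM of the 4 libraries ranged from 370253.5 to 390224.4, and their read depth is unknown. VIRMA itself was at 9.37 and 14.1 FPKM with shCtrl and 6.90 and 8.52 FPKM with shKIAA1429. The groups did not overlap, but the log2 difference of -0.53 (SE 0.24) did not pass the test. The limma adjusted p was 0.917, or 0.078 before adjustment, so these 4 samples alone do not establish the knockdown at the RNA level. The paper cites qPCR and western blots for knockdown of KIAA1429 by small interfering RNA, in HCCLM3 among other cells. It also reports lower N6-methyladenosine in HCCLM3 cells with KIAA1429 inhibited. Of 13 hepatocyte or hepatoma markers only SERPINA1 was listed, at 3.34 to 4.42 FPKM in shCtrl and 4.70 to 5.63 FPKM in shKIAA1429, and ALB was not among the listed genes. Of 5 epithelial markers 3 were listed, the keratins KRT8, KRT18 and KRT19, which summed to 2440 to 2511 FPKM in shCtrl and 2602 to 2664 FPKM in shKIAA1429. Neither SERPINA1 nor the keratin sum overlapped between the groups. Taken singly, KRT8 and KRT18 overlapped, while KRT19 was at 364 and 350 FPKM with shCtrl and 461 and 458 FPKM with shKIAA1429. None of the 3 endothelial markers was listed. The 2 listed immune markers, CD68 and CD14, summed to 48.4 to 56.3 FPKM in shCtrl and 46.7 to 55.5 FPKM in shKIAA1429.

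All 8 listed genes passed the filter of at least 1 FPKM in at least 2 samples. Differences are shKIAA1429 minus shCtrl on the scale of log2(FPKM + 1), tested with limma, and the Benjamini-Hochberg adjustment covered all 11657 genes tested. A gene was called at an adjusted p under 0.05 and an absolute log2 difference over 1. None of the 8 was called, against 0 (0%) of all genes, and 0 of the 8 had an unadjusted p under 0.05, against 656 (5.63%) of all genes. The paper, with DESeq on read counts at these thresholds, does report differentially expressed genes in stable knockdown cells. Those counts were not analysed here. TGFB1, LTBP3 and TGFBR2 were higher in both shKIAA1429 samples than in both shCtrl samples, where 16.9% of all genes had that arrangement. TGFBR1 was lower in both, an arrangement held by 16.7% of all genes. The median log2 difference was 0.10 over the 8 genes and -0.01 over all genes tested, and 5 of the 8 were above 0.

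**Figure D1:**
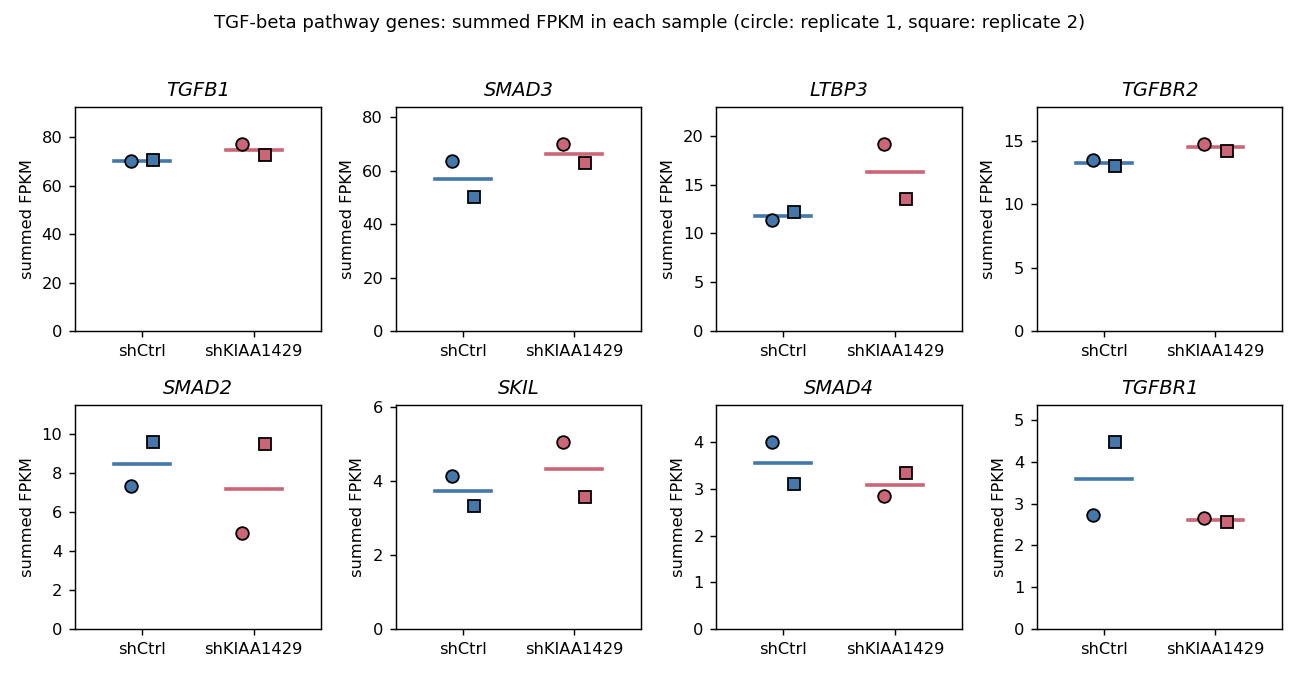
Summed FPKM of each of the 8 listed genes (y axis, from 0) in shCtrl and shKIAA1429; circles are replicate 1, squares are replicate 2 and horizontal lines are group means (n = 2). TGFB1, LTBP3 and TGFBR2 have both shKIAA1429 points above both shCtrl points, TGFBR1 has both below, and the other 4 genes overlap.

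The levels spanned a wide range. TGFB1 stood highest, with a mean of 72.6 FPKM over the 4 samples, followed by SMAD3 at 61.6, LTBP3 at 14.0, TGFBR2 at 13.9, SMAD2 at 7.81, SKIL at 4.02, SMAD4 at 3.33 and TGFBR1 at 3.11 FPKM. TGFB1 and SMAD3 were barely separate, the lowest TGFB1 value being 70.1 and the highest SMAD3 value 69.9 FPKM. SMAD3 lay wholly above LTBP3, and TGFBR2 wholly above SMAD2. LTBP3 and TGFBR2 overlapped, as did each pair of neighbours from SMAD2 down to TGFBR1. By the listed transcripts, the cells thus held much more RNA of the ligand and of SMAD3 than of the type I receptor or of the shared partner SMAD4. For TGFBR1, the listed transcripts do not include the form that the annotation marks as reference.

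TGFB1, the ligand (ENSG00000105329.9_2, chr19:41807492-41859816 in GRCh37, minus strand), was at 70.1 and 70.4 FPKM with shCtrl and 77.1 and 72.7 FPKM with shKIAA1429. In these bulk samples, fewer cells of a type and less RNA per cell cannot be told apart. The groups did not overlap, yet the gap was small, with a log2 difference of 0.09 (SE 0.12, limma adjusted p = 0.987), or 0.05 without shKIAA1429 replicate 1. Nearly all of it came from the coding transcript TGFB1-201, which held between 98.3% and 99.1% of the sum in every sample. The remaining transcript, TGFB1-203, for which the annotation defines no coding sequence, was at 0.642 to 1.30 FPKM.

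LTBP3 (ENSG00000168056.15_3, chr11:65306276-65326401, minus strand), which binds latent TGF-beta and tethers it to the matrix, was at 11.4 and 12.1 FPKM with shCtrl and 19.1 and 13.5 FPKM with shKIAA1429. Both shKIAA1429 samples were higher, replicate 1 by far more than replicate 2. The means were 11.8 ± 0.545 and 16.3 ± 4.0 FPKM (SD, n = 2), and the log2 difference of 0.42 (SE 0.20, limma adjusted p = 0.924) was the largest in size of the 8 genes. Without shKIAA1429 replicate 1 it was 0.18, and without shKIAA1429 replicate 2 it was 0.66.

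LTBP3 was spread over 8 listed transcripts. The full-length coding form LTBP3-201 was at 4.98 and 4.70 FPKM with shCtrl and 3.77 and 5.55 FPKM with shKIAA1429, so the groups overlapped and the higher sum did not lie in this form. LTBP3-212, a short transcript that the annotation classes as a retained intron, was at 0.901 and 3.16 FPKM with shCtrl and 6.14 and 3.82 FPKM with shKIAA1429. Its groups did not overlap, and the log2 difference was 1.06 (SE 0.49, limma adjusted p = 0.925 over the 24996 transcripts tested). Leaving out shCtrl replicate 1 gave 0.50, and leaving out replicate 2 gave 1.63. LTBP3-221 and LTBP3-208, also classed as retained introns, both overlapped between the groups. LTBP3-221 was at 3.27 and 3.07 FPKM with shCtrl and 4.20 and 1.25 FPKM with shKIAA1429, with means of 3.17 and 2.73 FPKM. LTBP3-208 had means of 0.587 and 0.303 FPKM, so the higher level of LTBP3-212 was not shared by these transcripts. LTBP3-218 followed the replicate number rather than the group, at 1.63 and 0.00312 FPKM with shCtrl and 3.59 and 0.00904 FPKM with shKIAA1429. Among all genes tested, the 5 whose centred values over the 4 samples lay nearest to those of LTBP3 were BTN3A1, AL392172.1, PLD3, SIKE1 and FBXO7, at Euclidean distances of 0.0445 to 0.0875 on the log2(FPKM + 1) scale.

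TGFBR2 (ENSG00000163513.17_2, chr3:30647994-30735634, plus strand), the type II receptor that binds the ligand, differed between the groups in its transcripts more than in its sum. The sum was 13.5 and 13.0 FPKM with shCtrl and 14.7 and 14.2 FPKM with shKIAA1429, a log2 difference of 0.12 (SE 0.14, limma adjusted p = 0.987). The 2 listed transcripts differed in opposite directions. They code for the short and the long form of the receptor. By the annotation they are alike in all 4530 exonic bases of TGFBR2-201, and TGFBR2-202 holds 75 bases more, a cassette exon of 25 codons at chr3:30664691-30664765 in GRCh37. It is coding exon 2 of 8, covers coding bases 95 to 169, and gives a coding length of 1776 bases against 1701, stop codon not counted. This insert lies in the extracellular part of the receptor, and the long form is known to respond to the TGFB2 ligand with less need of the co-receptor TGFBR3. The sequences below show the junction in both forms, since the values of TGFBR2 turn on the balance between them. They were read from the GRCh37 genome, with the alternative exon in capitals and 20 bases of the neighbouring exons in lower case.
TGFBR2-202: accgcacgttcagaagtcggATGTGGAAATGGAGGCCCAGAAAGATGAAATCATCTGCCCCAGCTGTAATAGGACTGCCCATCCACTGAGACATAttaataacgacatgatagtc
TGFBR2-201: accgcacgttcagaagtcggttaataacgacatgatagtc

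The short form, TGFBR2-201 (ENST00000295754.9_1, chr3:30647994-30735626), was at 7.49 and 8.15 FPKM with shCtrl and 2.31 and 2.42 FPKM with shKIAA1429. The replicates lay close together and the groups were well apart, with means of 7.82 ± 0.465 and 2.36 ± 0.0800 FPKM (SD, n = 2). The long form, TGFBR2-202 (ENST00000359013.4_1, chr3:30648093-30735634), was at 6.0 and 4.86 FPKM with shCtrl and 12.4 and 11.8 FPKM with shKIAA1429. Here too the groups were well apart, in the opposite direction, with means of 5.43 ± 0.804 and 12.1 ± 0.444 FPKM (SD, n = 2). The log2 difference was -1.39 (SE 0.18) for TGFBR2-201, with a limma adjusted p of 0.237, or 0.00178 before adjustment. It was 1.03 (SE 0.18) for TGFBR2-202, with a limma adjusted p of 0.353, or 0.00581 before adjustment. Neither passed the adjustment over 24996 transcripts, and 188 transcripts had a p at or under that of TGFBR2-201.

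As a share of the TGFBR2 sum, the long form took 44.5% and 37.4% in shCtrl and 84.3% and 83.0% in shKIAA1429, a difference in means of 42.7 percentage points. It was the minor form in both shCtrl samples and the major form in both shKIAA1429 samples. When each transcript was measured against the rest of its own gene, a comparison chosen after the values were seen, the log2 difference of TGFBR2-202 was 2.42 (SE 0.296), with a limma adjusted p of 0.221, or 0.00162 before adjustment. Of all 20381 transcripts fitted in this way, 6.21% had an unadjusted p under 0.05. A share difference at least as large, with no overlap between the groups, was held by some transcript of 200 (2.98%) of the 6715 genes with 2 or more transcripts compared, and by 2 of the 7 such genes here, TGFBR2 and SKIL. The size asked for was that of TGFBR2 itself, so its own place in that count was given. The direction held when any of the 4 samples was left out, with a log2 difference of -1.45 to -1.34 for TGFBR2-201 and 0.90 to 1.16 for TGFBR2-202. The forms share all but 75 bases, so each FPKM is an estimate of how shared reads were divided, and reads across the exon junctions were not analysed here. The deposited models also differ at the ends, TGFBR2-202 starting 99 bases later and ending 8 bases later, and the part of these ends in the split was not tested.

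**Figure D2:**
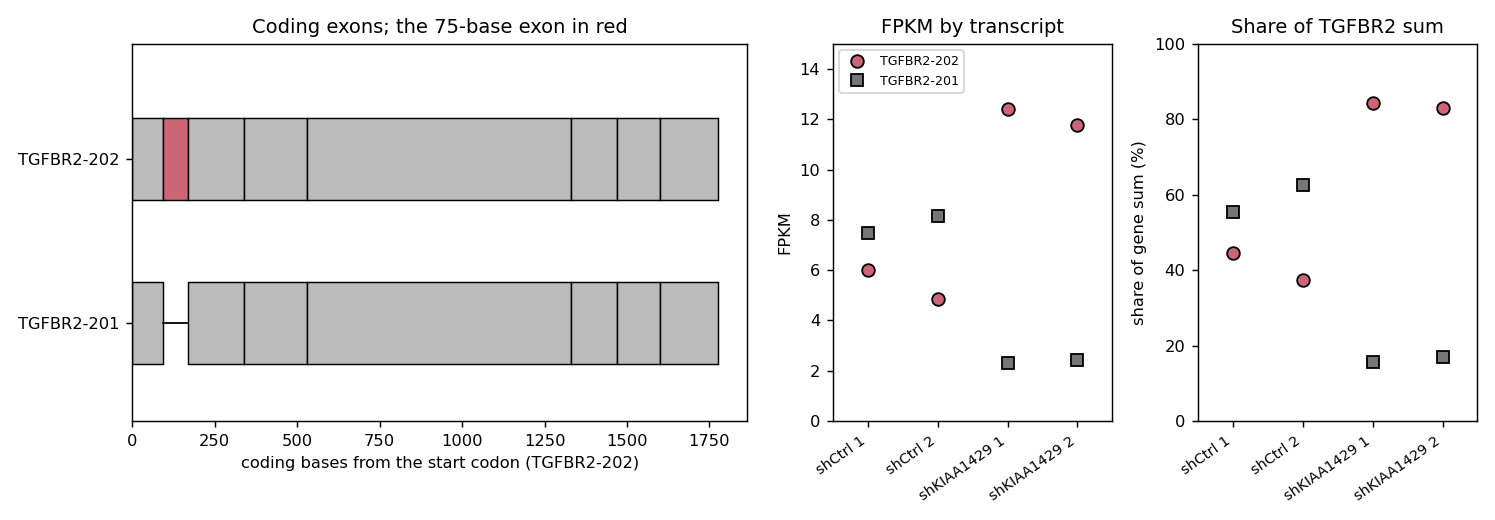
Left, coding exons of the TGFBR2 transcripts in bases from the start codon, with the 75-base exon of TGFBR2-202 in red and its absence in TGFBR2-201 as a line; middle and right, FPKM and share of the TGFBR2 sum (%) of each transcript in the 4 samples. The long form takes 44.5% and 37.4% in shCtrl and 84.3% and 83.0% in shKIAA1429, with the short form as its complement.

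TGFBR1 (ENSG00000106799.12_2, chr9:101867393-101915940, plus strand), the type I receptor kinase that phosphorylates SMAD2 and SMAD3, was at 2.72 and 4.48 FPKM with shCtrl and 2.67 and 2.57 FPKM with shKIAA1429. The shKIAA1429 samples were lower than both shCtrl samples, but shCtrl replicate 1 lay next to them. The log2 difference was -0.32 (SE 0.23, limma adjusted p = 0.969), and leaving out shCtrl replicate 2 gave -0.04 and leaving out replicate 1 gave -0.60. None of the 3 listed transcripts is marked by the annotation as the reference form of the gene, and the sum covers listed transcripts only. TGFBR1-201, the listed transcript of this gene with the highest mean, was at 2.32 and 2.12 FPKM with shCtrl and 0.0704 and 1.89 FPKM with shKIAA1429. Its log2 difference was -0.87 (SE 0.55, limma adjusted p = 0.973), or -0.16 without shKIAA1429 replicate 1 and -1.59 without replicate 2. TGFBR1-208 was at 0.243 and 2.23 FPKM with shCtrl and 0 and 0.498 FPKM with shKIAA1429, and stood above TGFBR1-201 in shCtrl replicate 2. TGFBR1-209 was at 2.60 FPKM in shKIAA1429 replicate 1 and at 0.127 to 0.179 FPKM in the other 3 samples. It holds 243 coding bases at chr9:101894779-101895021 that TGFBR1-201 lacks. The low level of TGFBR1-201 and the high level of TGFBR1-209 were thus those of 1 sample and not of its group.

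SMAD2 (ENSG00000175387.15_4, chr18:45335328-45457517, minus strand), one of the receptor-activated SMADs, was at 7.32 and 9.57 FPKM with shCtrl and 4.91 and 9.45 FPKM with shKIAA1429. The groups overlapped and shKIAA1429 replicate 1 was the low sample, with a log2 difference of -0.25 (SE 0.32, limma adjusted p = 0.987). SMAD2 is made with or without an exon of 90 bases at chr18:45396846-45396935, which lies in the DNA-binding MH1 part and is known to keep full-length SMAD2 from binding DNA directly. The junction is shown for comparison with that of TGFBR2, on the minus strand of GRCh37 and marked in the same way.
SMAD2-201: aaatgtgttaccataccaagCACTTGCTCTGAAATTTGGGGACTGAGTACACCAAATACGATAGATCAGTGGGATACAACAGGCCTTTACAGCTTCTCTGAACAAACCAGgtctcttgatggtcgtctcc
SMAD2-202: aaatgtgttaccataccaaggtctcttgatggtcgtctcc

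The 4 transcripts with this exon took 72.6% and 59.2% of the SMAD2 sum in shCtrl and 73.3% and 42.7% in shKIAA1429. These shares overlapped, and replicates 1 of both groups were higher than replicates 2. Of the transcripts with the exon, the annotation marks SMAD2-207, SMAD2-208 and SMAD2-210 as incomplete at the end, with 411 to 652 coding bases. SMAD2-201, the complete form with the exon, was at 1.41 and 0.500 FPKM with shCtrl and 0.718 and 0.520 FPKM with shKIAA1429. The shares thus rest largely on partial models. SMAD2-202, which lacks the exon, followed the replicate number, at 0.547 and 3.59 FPKM with shCtrl and 0.607 and 4.10 FPKM with shKIAA1429. SMAD2-207, which has it, was lower in both shKIAA1429 samples, at 2.45 and 3.71 FPKM with shCtrl and 1.73 and 1.19 FPKM with shKIAA1429. Its log2 difference was -0.72 (SE 0.27, limma adjusted p = 0.831).

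SMAD3 (ENSG00000166949.15_3, chr15:67358183-67487533, plus strand), the receptor-activated SMAD that binds DNA directly, was at 63.5 and 50.1 FPKM with shCtrl and 69.9 and 62.8 FPKM with shKIAA1429. The groups overlapped, with a log2 difference of 0.23 (SE 0.17, limma adjusted p = 0.969), and leaving out shCtrl replicate 2 gave 0.06, against 0.40 for leaving out replicate 1. The full-length transcript SMAD3-201 was at 33.9 and 30.3 FPKM with shCtrl and 39.6 and 34.4 FPKM with shKIAA1429, a log2 difference of 0.20 (SE 0.15, limma adjusted p = 0.973), with no overlap. It was 0.10 without shKIAA1429 replicate 1. SMAD3-203, which lacks 585 coding bases of SMAD3-201, was at 15.8 and 0.225 FPKM with shCtrl and 14.3 and 13.6 FPKM with shKIAA1429. A single low sample, shCtrl replicate 2, made its log2 difference of 1.71 (SE 1.38, limma adjusted p = 0.973), which was -0.18 without that sample. SMAD3-204, which lacks 315 coding bases, was at 10.5, 14.7, 11.7 and 10.3 FPKM in shCtrl replicates 1 and 2 and shKIAA1429 replicates 1 and 2.

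SMAD4 (ENSG00000141646.13_3, chr18:48555984-48611415, plus strand), the shared partner of the activated SMADs, was at 4.01 and 3.10 FPKM with shCtrl and 2.85 and 3.35 FPKM with shKIAA1429. The groups overlapped, with a log2 difference of -0.15 (SE 0.18, limma adjusted p = 0.987), between -0.29 and -0.0038 when a shCtrl sample was left out. Its transcripts differed between replicates of a group more than between groups. SMAD4-201 was at 3.28 and 0.622 FPKM with shCtrl and 0.703 and 3.27 FPKM with shKIAA1429. SMAD4-202 was at 0.00021 and 2.16 FPKM with shCtrl and 1.77 and 0 FPKM with shKIAA1429. The coding sequence of both is the same, and the sum was steadier than either transcript.

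SKIL (ENSG00000136603.13_3, chr3:170075514-170114623, plus strand), which represses SMAD targets and is itself broken down on TGF-beta signalling, was at 4.14 and 3.32 FPKM with shCtrl and 5.05 and 3.57 FPKM with shKIAA1429. The groups overlapped, with a log2 difference of 0.16 (SE 0.21, limma adjusted p = 0.987). SKIL-204 was at 0.884 and 0.488 FPKM with shCtrl and 1.68 and 3.57 FPKM with shKIAA1429, with no overlap and a log2 difference of 1.06 (SE 0.36), with a limma adjusted p of 0.762, or 0.0436 before adjustment. Without shKIAA1429 replicate 2 the difference was 0.68. Its share of the SKIL sum was 21.3% and 14.7% in shCtrl and 33.4% and 100% in shKIAA1429, so the shKIAA1429 replicates lay further apart than the groups. SKIL-201, with the same coding sequence, was at 0.971 and 2.83 FPKM with shCtrl and 3.36 and 0 FPKM with shKIAA1429. SKIL-202, which lacks 138 coding bases at chr3:170102416-170102553, was listed at 2.29 FPKM in shCtrl replicate 1 and at 0 in the other 3 samples.

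Of the 35 transcripts, 21 passed the filter and were tested, and 6 of the 35 were at 0 in at least 1 sample. None of the 21 was called by limma, against 0 (0%) of all 24996 transcripts. Unadjusted p-values under 0.05 were held by 3 of the 21, TGFBR2-201, TGFBR2-202 and SKIL-204, and by 6.28% of all transcripts. With no overlap, 6 were higher and 3 lower in shKIAA1429, where 16.7% and 16.8% of all transcripts were so arranged. The highest value was over 5-fold the lowest for 9 of the 21. A p that misses the threshold does not show that a transcript did not differ. The 14 transcripts that were not tested stayed between 0 and 2.60 FPKM.

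**Figure D3:**
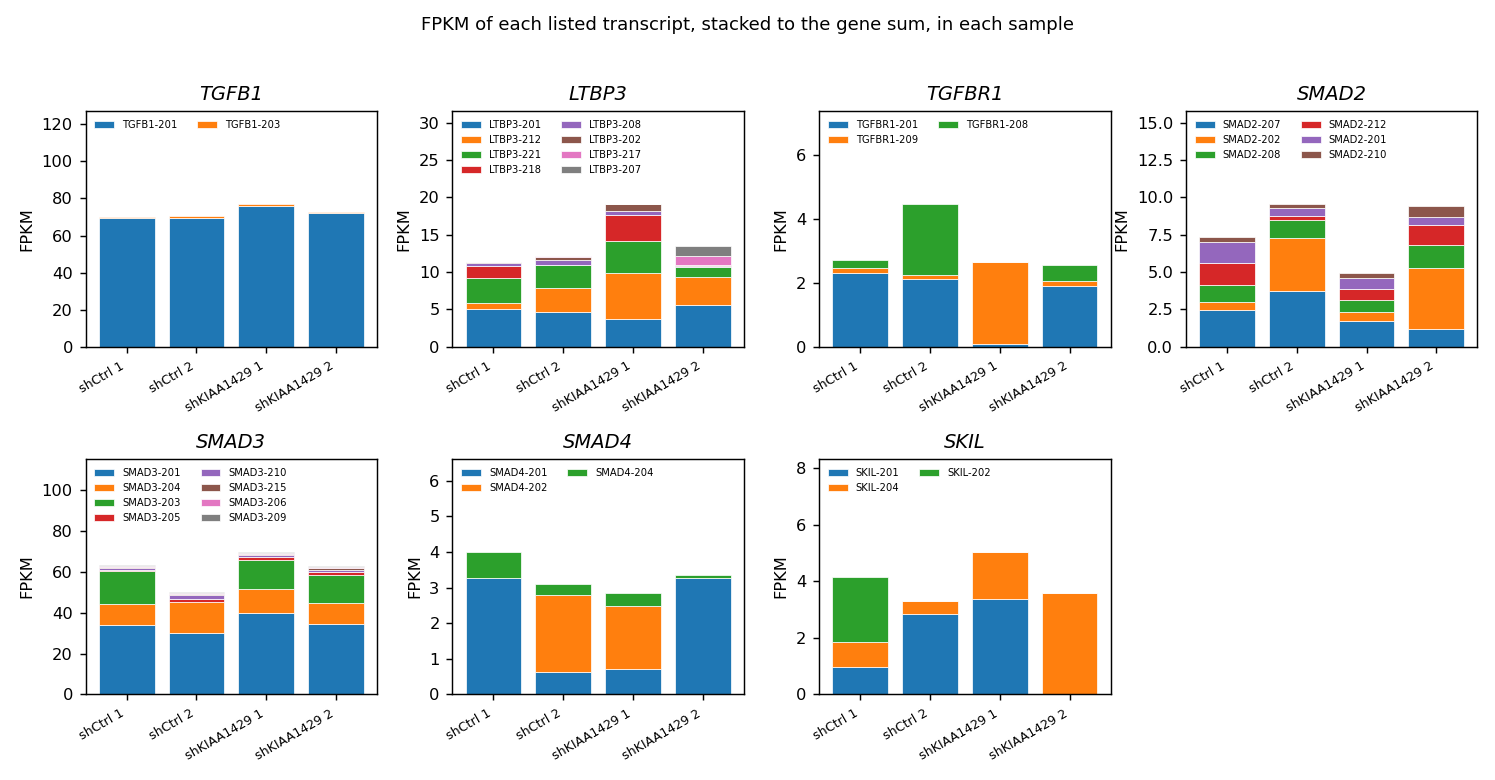
FPKM of each listed transcript (colours), stacked to the gene sum, in each of the 4 samples for the 7 listed genes other than TGFBR2; replicate numbers follow the group names. SMAD4, SKIL and TGFBR1 show transcripts that exchange between replicates of a group, while TGFB1-201 is nearly the whole of TGFB1 in every sample.

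**Figure D4:**
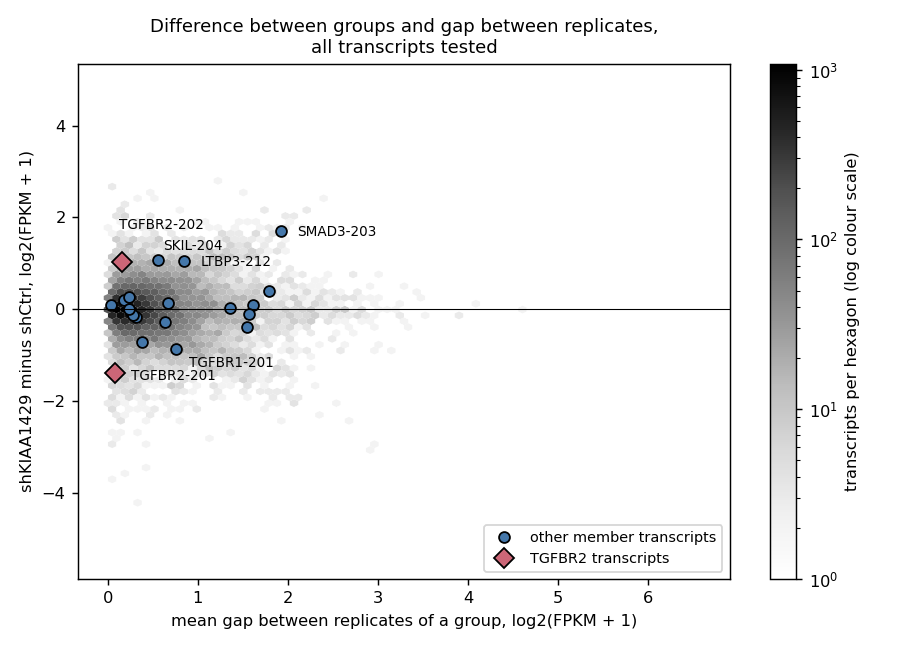
Difference between groups (y axis, log2(FPKM + 1), shKIAA1429 minus shCtrl) against the mean gap between replicates of a group (x axis, same scale) for all 24996 transcripts tested, as grey hexagons on a log colour scale, with the 21 member transcripts as points. The TGFBR2 transcripts, at 1.03 and -1.39, lie at small gaps between replicates, while SMAD3-203, at 1.71, lies at a wide gap.

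The rest of the pathway was taken from a list of 85 symbols, of which 69 were listed and 61 tested. The symbols CCN2 and CTGF in that list name the same gene, which had a row only as CTGF. None of the 61 was called by limma, and 4 had an unadjusted p under 0.05, LTBP2, SNAI2, FN1 and VIM, where 5.63% of all genes did. The log2 difference was above 0 for 27 and below 0 for 34 of them, with a median of -0.04. With no overlap, 13 were higher and 7 lower in shKIAA1429, beside 16.9% and 16.7% of all genes.

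The list of 16 other ligands also held BMP1, which is not itself a ligand. Of the 16, 7 were tested, BMP1 among them, and 6 of the 7 had a difference below 0, as did 51.9% of all genes. BMP1, a protease that also processes matrix and latent TGF-beta complexes, was at 3.85 and 5.88 FPKM with shCtrl and 3.23 and 1.84 FPKM with shKIAA1429, with a log2 difference of -0.74 (SE 0.29, limma adjusted p = 0.884). BMP4 was at 2.85 and 4.13 against 2.80 and 1.86 FPKM, a log2 difference of -0.43 (SE 0.24). Both were lower with no overlap, but leaving out 1 sample moved BMP1 to between -1.03 and -0.45 and BMP4 to between -0.64 and -0.22. TGFB2, the ligand tied to the long receptor form, was at 44.4 and 30.9 FPKM with shCtrl and 38.6 and 29.7 FPKM with shKIAA1429, with overlap, and TGFB3 had no row. TGFBR3 was listed but below the filter.

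Among storage proteins and traps 7 of 12 were tested. LTBP2, of the same family as LTBP3, was at 2.02 and 1.36 FPKM with shCtrl and 3.96 and 2.74 FPKM with shKIAA1429, with no overlap and a log2 difference of 0.69 (SE 0.23), with a limma adjusted p of 0.852, or 0.0305 before adjustment. Of 8 other receptors tested, 3 were higher with no overlap and none lower, beside 16.9% and 16.7% of all genes. Of these 8 receptors, 5 had a difference below 0, as did 51.9% of all genes. ACVR1B, an activin type I receptor, was at 9.39 and 8.63 against 11.7 and 11.6 FPKM, a log2 difference of 0.34 (SE 0.14), and BMPR2 differed by 0.14 (SE 0.14).

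The SMADs of the BMP branch differed in opposite directions. SMAD1 was at 2.57 and 2.04 FPKM with shCtrl and 3.41 and 3.21 FPKM with shKIAA1429, a log2 difference of 0.39 (SE 0.17, limma adjusted p = 0.901). SMAD5 was at 10.8 and 11.7 FPKM with shCtrl and 9.44 and 7.96 FPKM with shKIAA1429, a log2 difference of -0.34 (SE 0.16, limma adjusted p = 0.917). Neither pair of groups overlapped, and neither difference passed the test.

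Of 14 repressors and ubiquitin regulators tested, 10 had a difference below 0, beside the same 51.9% of all genes. The SMAD ubiquitin ligase SMURF2 was at 75.1 and 79.3 FPKM with shCtrl and 55.3 and 71.4 FPKM with shKIAA1429, with no overlap and a log2 difference of -0.29 (SE 0.17, limma adjusted p = 0.949), or -0.11 without shKIAA1429 replicate 1. Its relative SMURF1 overlapped, as did SKI, the paralog of SKIL, and TGIF1, with log2 differences of -0.04, 0.07 and 0.09. PPM1A, a SMAD phosphatase, was higher with no overlap by only 0.07. Of the 3 coactivators tested, CREBBP was at 16.0 and 16.7 against 22.9 and 18.7 FPKM, a log2 difference of 0.33 (SE 0.16, limma adjusted p = 0.924), or 0.18 without shKIAA1429 replicate 1.

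Among 16 target genes tested, 5 were higher and 1 lower with no overlap, beside 16.9% and 16.7% of all genes. FN1, fibronectin, was at 128.2 and 119.1 FPKM with shCtrl and 215.2 and 206.1 FPKM with shKIAA1429. The replicates of this sum lay close together and its groups well apart, with a log2 difference of 0.76 (SE 0.11), with a limma adjusted p of 0.366, or 0.0011 before adjustment. It covers 13 transcripts, and several swung between replicates. FN1-212 was at 26.3 and 12.7 FPKM with shCtrl and 18.3 and 45.2 FPKM with shKIAA1429. FN1-213, which had the highest mean, did not overlap, at 33.7 and 31.5 FPKM with shCtrl and 55.1 and 56.2 FPKM with shKIAA1429. SNAI2, a repressor of epithelial genes, was at 16.4 and 11.8 FPKM with shCtrl and 25.6 and 19.0 FPKM with shKIAA1429, a log2 difference of 0.63 (SE 0.23, limma adjusted p = 0.884), or 0.41 without shCtrl replicate 2. The targets CTGF, ID1 and CDKN1A overlapped between the groups, with log2 differences of 0.05, -0.06 and -0.05. The sign for CTGF turned when libraries were scaled to a common sum. Fibroblast markers gave 9.05 to 9.73 FPKM in shCtrl and 9.82 to 11.7 FPKM in shKIAA1429, summed over the 3 of 4 that were listed. Taken singly, these 3 markers, COL1A1, PDGFRB and DCN, each overlapped between the groups. The mesenchymal markers VIM, FN1 and CDH2 summed to 1100 to 1162 FPKM in shCtrl and 1415 to 1453 FPKM in shKIAA1429. The keratin sum and SERPINA1 given above were likewise higher in shKIAA1429, though of the keratins only KRT19 was without overlap. The part of other cells in these values was not tested.

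**Figure D5:**
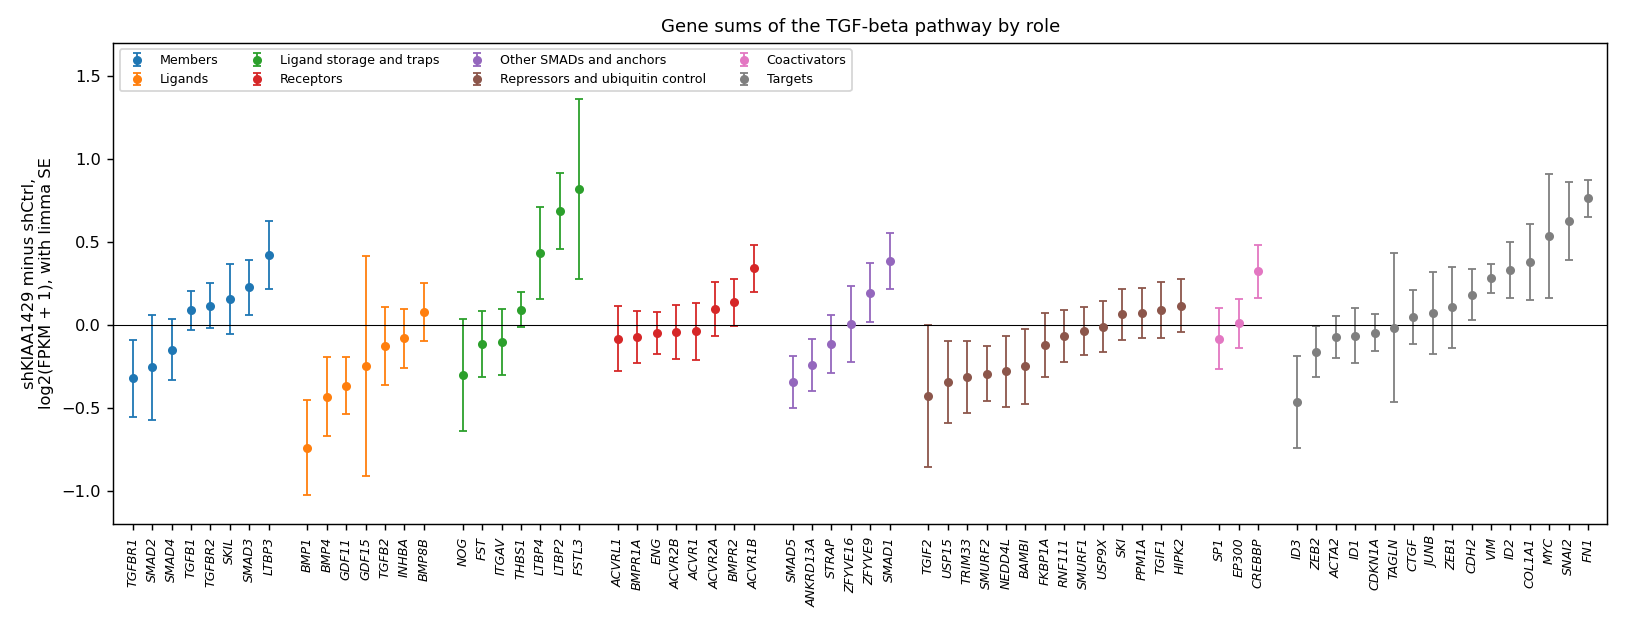
Log2 difference (y axis, log2(FPKM + 1), shKIAA1429 minus shCtrl) of the 8 listed genes and the 61 other pathway genes tested, grouped and coloured by role and ordered by value; bars are the limma standard error. FN1, at 0.76, has the highest value among the targets and a short bar, and the members lie between -0.32 and 0.42.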

How the data were processed

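RNA from 4 HCCLM3 samples was sequenced, 2 per group, and groups and replicate numbers were taken from the sample titles. The study's methods state TopHat alignment of paired reads, HTSeq counts and DESeq, and the submitters' processing notes name Bowtie2 2.1.0 and hg19. The deposited values are FPKM per annotated transcript, made by the authors with a tool not given in the sources used here. Every listed transcript exceeded 0.5 FPKM in some sample (lowest maximum 0.504). FPKM moves with the total of a library and with how reads shared by transcripts are divided, and depth is unknown, so no counting interval is given. Strand and multiple mapping rules are not given in the sources used here.

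Transcript FPKM were summed per gene identifier. The filter was 1 FPKM in 2 samples, the pseudocount 1, and the test was limma (version 3.58.1, R 4.3.3, two-sided, eBayes with trend, group only), by gene and, separately, by transcript. The fits were also run on simulated data with independent noise. That simulation did not imitate the division of reads shared by transcripts, and no result here rests on it. Identifiers of all 35 member transcripts matched GENCODE 44 lifted to GRCh37, and 23 had the same start and end there. Exons and coding parts come from that annotation and sequences from the GRCh37 genome, while positions of genes and transcripts are those of the files. In 2 of the files some symbols had been turned into dates, none of them of a member, and 2 rows stood out of identifier order, none of a member.

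The members, pathway list and markers were chosen with earlier results of these data known. Named were all members, per member the transcript of at least 1 FPKM with the largest log2 difference and that with the highest mean, and per role the 2 largest differences without overlap plus a set list, of which 1 gene is not reported here. Other transcripts, VIM, the keratins and the fibroblast and immune markers were named after their values were seen, as was the emphasis on the TGFBR2 share. Alternatives were 2 other scalings, 2 other filters, a pseudocount of 0.1, the replicate block, leaving out each sample, either threshold alone, eBayes without trend and coding transcripts only. The fit relative to the rest of the gene was a later addition. Plots used matplotlib 3.10.9 (Python 3.11.15).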

Additional observations from a re-analysis of the deposited data

How the results depend on the processing

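With 2 samples per group the spread is poorly known, the depth behind each FPKM is unknown, and the division of reads between transcripts cannot be checked from these files. Of the 39 log2 differences named, 38 kept their sign under each setting that was run without leaving out a sample. These were 8 settings for the 8 member genes and 6 or 7 for the pathway genes and transcripts. The filters, the replicate block and eBayes without trend cannot change a log2 difference. Only the scalings, the pseudocount and the sums of coding transcripts could turn a sign. Under every fit that left out 1 sample, 26 of the 39 kept their sign. Scaling to a common sum turned CTGF to -0.001499. No scaling moved the median of all genes by over 0.1. Leaving out a sample gave 0 to 1 genes past both thresholds, the 1 appearing without shCtrl replicate 1, and no member gene or transcript passed in any such fit. By fold alone, with no test, 125 genes, 1807 transcripts and 5 member transcripts passed. The lowest adjusted p over all settings was 0.211 for the values named, and 0.482 for the members' gene sums.

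In the fit with a replicate block, 0 genes and 0 transcripts passed both thresholds, and the block changed no call. Deviations of same-numbered samples correlated at 0.32 over genes and 0.064 over transcripts, with 2 pairs only, so the numbers were not taken to pair the samples.

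When 1 sample was left out, where the lone sample of a group is assumed to vary like the other group, the sign turned for SKIL (-0.044 to 0.36), SMAD2 (-0.67 to 0.16), SKIL-201 (-1.46 to 0.67), LTBP3-201 (-0.29 to 0.17), SMAD4-201 (-0.67 to 0.73) and SMAD3-203 (-0.18 to 3.61). Among pathway genes it turned for TGFB2 (-0.38 to 0.13), SKI (-0.035 to 0.17), TGIF1 (-0.045 to 0.23), SMURF1 (-0.13 to 0.052), CTGF (-0.095 to 0.20), ID1 (-0.19 to 0.060) and CDKN1A (-0.094 to 0.0029). A further 16 kept their sign but moved by over 1.5 times. The cause was not tested.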
